A study of Mus musculus with 2 samples.

Results

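The 99 miRNA genes described here carry the names that mouse hairpins received late or only provisionally: a symbol beginning with Gm (12 genes) or Mir followed by a number of 1000 or more (87 genes). They were chosen by that name and by their own read counts, a total of at least 10 counts on the strand of the gene over both libraries, so that their having counts is not a finding. Of 1973 miRNA genes in the count tables, 1415 fitted the names after Mir3074-1 and the plus-strand genes of the distal Dlk1-Dio3 miRNA cluster were left out. Of these, 99 (7.00%) reached 10 counts, 231 had 1 to 9 and 1085 had 0. Among the 479 other genes with a symbol, 299 (62.4%) reached 10 counts, and these 299 serve as the comparison below. They include 4 genes that fitted the names but were left out.

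Each library was made from pooled forebrains of B6NCrl mice on embryonic day 11.5, with no treatment and both sexes in the pool, 109 embryos in replicate 1 and 88 in replicate 2. Both tissue samples have the same donor entry, and with a single group no condition could be compared, so p-values here measure only how far the libraries differ beyond counting error. Replicate 1 held 1281201 sense counts over all miRNA genes and replicate 2 held 1297647. Levels are given as CPM, counts per 1000000 of these totals. A count of 0 has an approximate 95% upper limit of 3 counts, or 2.34 and 2.31 CPM. As a check of the tissue, Mir92b, a miRNA gene of neural progenitors, stood at 17079 ± 1908 CPM (SD, n = 2, as for every value with ± below), and the neuronal Mir124a-2, which has near-identical copies, at 20.5 ± 5.85 CPM. Genes of red blood cells, of hindbrain and spinal cord, and of liver also had counts, which are given below with the calls.

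A canonical miRNA is cut from a hairpin by the nuclear Microprocessor, made of DROSHA and DGCR8, and then by DICER, after which 1 arm guides an Argonaute protein to messenger RNAs through its seed, bases 2 to 8. Mirtrons skip the first cut: the spliced intron itself folds into the hairpin, so that its ends are splice sites. Numbers in miRNA names follow the order of registration, and many late entries came from deep sequencing of small RNA, where fragments of tRNA, rRNA or messenger RNA can be taken for miRNAs. In each case below, the host gene and any shared sequence are therefore given beside the counts.

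Mature sequences from RefSeq (GRCm38.p6) matched 83 of the 99 genes by symbol. Those of the genes on which the results turn are shown 5′ to 3′ with the seed in capitals: the 3 most abundant genes, 2 splice-bounded introns, the 2 Gm genes that RefSeq lists with a mature sequence, and 2 genes whose counts differed between the libraries.
miR-1983: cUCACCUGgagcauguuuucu
miR-1251-5p: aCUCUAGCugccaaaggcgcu
miR-1306-3p: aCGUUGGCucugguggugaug
miR-3102-5p: gUGAGUGGccaggguggggcug
miR-6944-5p: gUGAGAGCggggggaguggcaag
miR-6944-3p: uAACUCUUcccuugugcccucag
miR-3618-5p, from Gm24572: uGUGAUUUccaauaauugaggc
miR-935, from Gm23450: cCCAGUUAccgcuuccgcuaccgc
miR-6236: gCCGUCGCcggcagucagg
miR-6240: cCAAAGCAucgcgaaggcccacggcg
The seed of miR-1983 is also that of an arm of Mir412, and the seed of miR-3102-5p is also that of an arm of Mir702. Of the other matched arms, miR-6958-5p shares its seed with an arm of Mir30c-1 and of Mir30c-2, and miR-7069-3p with an arm of Mir18. An arm of Mir96 has the seed of miR-3475-5p, an arm of Mir674 that of miR-1947-3p and an arm of Mir330 that of miR-6240. No membership of a seed family is read from these matches.

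Levels were low and very uneven. The 99 genes held 19315 counts in replicate 1 and 17757 in replicate 2, or 1.51% (95% Wilson interval 1.49 to 1.53) and 1.37% (1.35 to 1.39) of all sense counts, with a mean of 1.44% ± 0.0984. The intervals cover counting error only and do not overlap. A single gene, Mir1983, supplied 69.3% of these counts, and without it the other 98 genes held 0.475% and 0.408% of the sense counts. The median level of the 99 was 11.3 CPM, from 3.88 to 9961, beside 396 CPM for the 299 other genes. A total of 100 counts was reached by 22 of the 99 genes and by 246 of the 299, and a total of 1000 by 4 and 150.

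**Figure D1:**
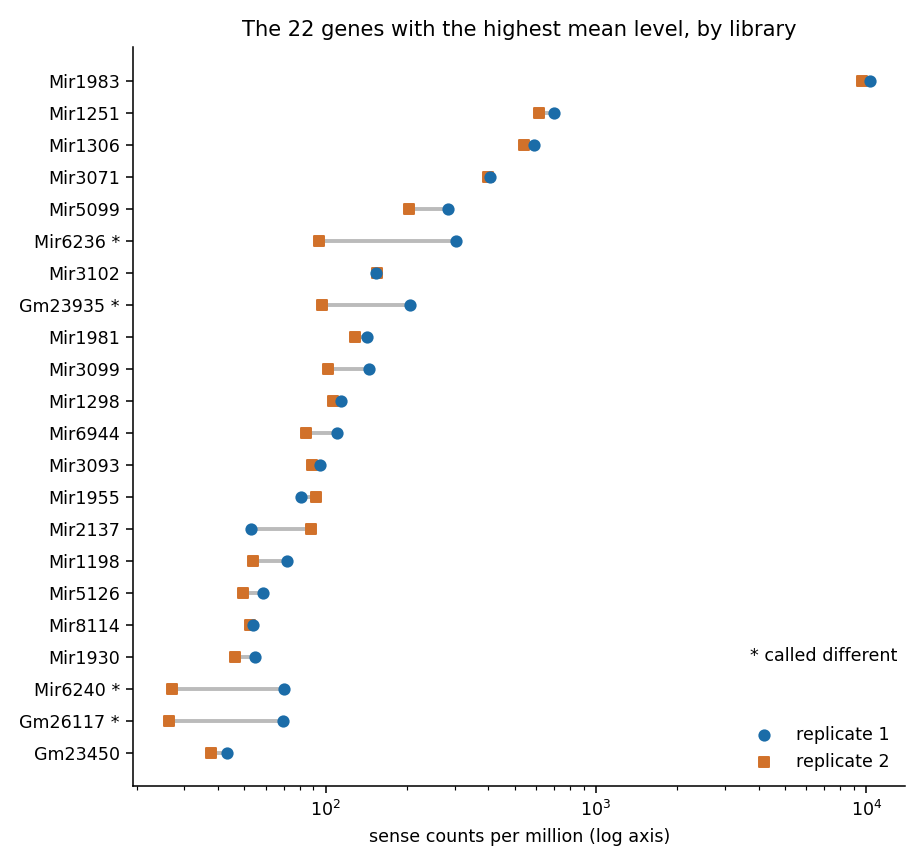
Sense CPM in each library for the 22 genes with totals of 100 counts or more, on a log axis; circles are replicate 1, squares replicate 2, and grey lines join the pair. Mir1983 stands at 10322 and 9600 CPM, far to the right of all others, and the starred genes were called different between the libraries.

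Mir1983 (ENSMUSG00000088148.1, chr13:21896918-21897049, minus strand, GRCm38) had 13225 counts in replicate 1 and 12457 in replicate 2, a level of 9961 ± 511 CPM, and ranked 28th of all miRNA genes. It was the only gene among the 99, and among all 398 with 10 counts or more, that overlapped an annotated gene of another small RNA class. The RefSeq tRNA gene n-TItat14 takes up 94 of the 132 bases of its hairpin, or 71.2%. RefSeq's mature miR-1983, 21 bases long, has 13 bases inside the tRNA gene, and its other 8 bases, at its 3′ end, lie beyond it. The table used gives no strand for the tRNA gene. Counts per hairpin do not tell a tRNA fragment from a cut miRNA, and which of them gave the 25682 counts was not tested.

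The next genes by level each lay in a different kind of transcript. Mir1251, in an intron of Rmst, a long noncoding RNA of neural progenitors, had 894 and 801 counts (658 ± 56.9 CPM). Mir1306, in a coding exon of Dgcr8, had 755 and 700 counts (564 ± 35.3 CPM). Mir3071, in the coding exon of Rtl1, an imprinted retrotransposon-derived gene of the Dlk1-Dio3 region, had 519 and 517 counts (402 ± 4.72 CPM). Its hairpin lies opposite Mir136, which was not analysed here. None of these 3 genes differed by as much as 1.5-fold between the libraries.

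Below them the libraries differed more for some genes than for others. Mir5099, on chromosome 12 outside any annotated gene, had 363 and 264 counts (243 ± 56.5 CPM), and RefSeq gave no mature sequence for it. Mir6236, likewise outside any gene, had 388 and 123 counts (199 ± 147 CPM), and Gm23935 had 263 and 126 (151 ± 76.5 CPM). Mir3099, in an intron of Usp29, had 185 and 132 counts (123 ± 30.2 CPM). By contrast, the splice-bounded Mir3102 had 196 and 201 counts (154 ± 1.35 CPM) and Mir1981 had 182 and 166 (135 ± 9.99 CPM).

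Most of the genes lay inside other genes. By position, 50 were in an intron of a gene on the same strand, 22 overlapped a same-strand exon by at least 1 base, 7 filled an intron from splice site to splice site, 3 had a gene on the opposite strand only, 16 had no annotated gene and 1 was Mir1983. In the same order, the 299 other genes fell as 141, 57, 2, 22, 77 and 0. In all, 82 of the 99 overlapped a host gene on either strand and 79 did so on their own strand, beside 200 of the 299 on their own strand. Position was not used in choosing the genes other than for those left out, and these counts are a description of the annotation with no test.

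**Figure D2:**
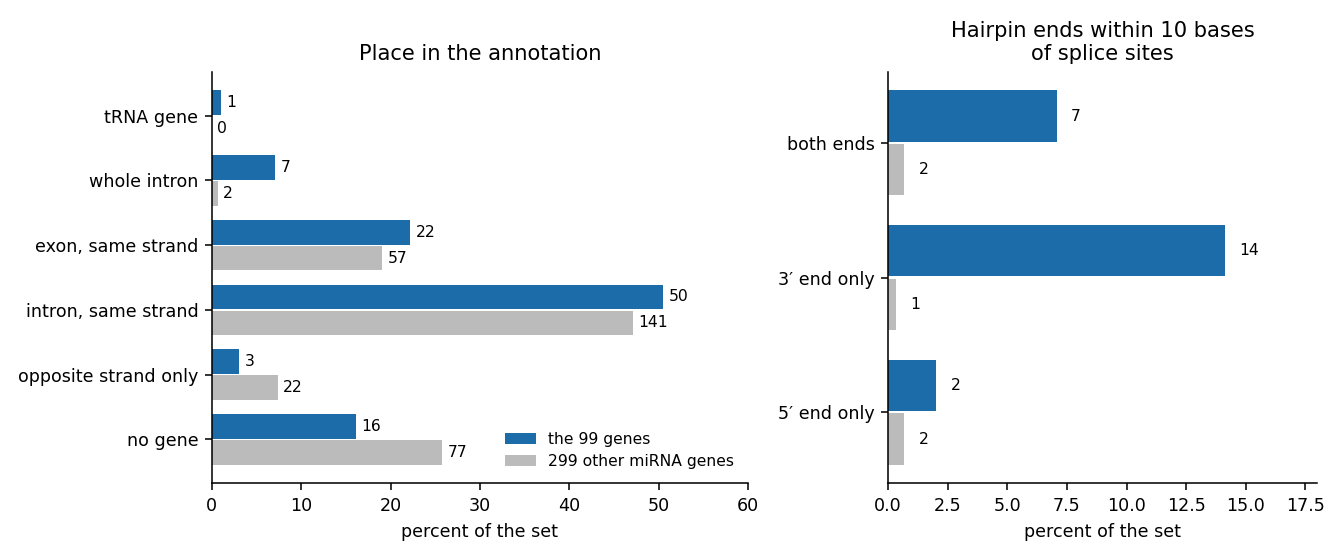
Left, percent of the 99 genes and of the 299 other miRNA genes in each kind of position; right, percent whose hairpin ends lie within 10 bases of the splice sites of a same-strand intron; the number of genes stands beside each bar. The 3′ end alone was near a splice site in 14 of the 99 genes and in 1 of the 299.

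The 7 splice-bounded genes had both ends within 10 bases of the splice sites of 1 intron. The ends coincided exactly with both splice sites for Mir3102 in Arhgef17 (an intron of 104 bases), Mir1981 in Marc2 (82 bases), Mir6944 in Dbn1 (96 bases), Mir6958 in Dennd6b (73 bases), Mir1982 in Oaz1 (74 bases) and Mir7068 in Cherp (74 bases). Mir3062, in Pfas, reached 6 bases and 2 bases into the flanking exons of an intron of 97 bases. miR-6944-5p above starts with gug and miR-6944-3p ends with cag, the letters of that intron's ends. Dbn1 encodes drebrin, an actin-binding protein of neurons, and Oaz1 encodes ornithine decarboxylase antizyme.

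Between the libraries, 0 of the 7 differed by at least 2-fold at an adjusted p under 0.05 in an exact binomial test, beside 2.76% of all 398 genes, and nothing is read from a count among so few. Mir6944 had 141 and 110 counts (97.4 ± 17.9 CPM, log2 ratio 0.38, 95% exact interval 0.01 to 0.75), the widest gap among those with 100 counts or more. Mir3062 had 36 and 30 counts (25.6 ± 3.52 CPM), Mir6958 had 8 and 11 (7.36 ± 1.58 CPM), Mir1982 had 6 and 7 (5.04 ± 0.503 CPM) and Mir7068 had 9 and 3 (4.67 ± 3.33 CPM). Among the 299 other genes, the corresponding hairpins were Mir877, with 355 and 385 counts, and Mir702, with 96 and 79.

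Beyond the full introns, a further 14 genes had only the 3′ end of the hairpin within 10 bases of a 3′ splice site, and for 10 of them the end fell exactly on it. Spliced introns with an extra stretch before the hairpin are known as tailed mirtrons, which need trimming of that stretch. The 14 were Mir3064 in Ddx5 (39 and 27 counts), Mir3097 in Rgs12 (14 and 15), Mir7069 in Farsa (7 and 17), Mir7083 in Dock6 (10 and 10), Mir6975 in Ddx39b (8 and 8), Mir7089 in Cdc25a (9 and 6), Mir3474 in Actr5 (5 and 8), Mir6900 in Ndufa10 (4 and 9), Mir5101 in Syne2 (6 and 6), Mir7064 in Cars (5 and 7), Mir3094 in Nfx1 (7 and 3), Mir6897 in Uggt1 (6 and 4), Mir3076 in Tkt (5 and 5) and Mir7026 in Ep400 (5 and 5). All but Mir3064 stood at 11.2 CPM or below. Mir6977 in Ptprs (7 and 6 counts) and Mir3572 in Cnot3 (5 and 5) had only the 5′ end near a splice site. With the 7 full introns, 23 of the 99 genes (23.2%) had an end near a splice site, beside 5 of the 299 (1.67%), but the 23 held 1389 counts in all.

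Same-strand exons were overlapped by 23 of the 99 genes, Mir3062 included. For 12 of them the exon was mostly coding, for 8 it was untranslated and for 3 it belonged to a noncoding transcript. In the 299 other genes, 3 exons were coding, 5 untranslated and 50 noncoding, many of the last from host transcripts of miRNA clusters. At least 50% of the hairpin lay in the exon for 16 of the 23. The overlap was 1 base for Mir3064 and Mir3076 and between 8 and 26 bases for Mir3062, Mir3474, Mir5101, Mir3572 and Mir3057 (24 and 16 counts, in Apba3). All of these short overlaps are among the 12 with a coding exon. Without them, coding exons were no longer the most frequent kind.

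The messenger RNA of Dgcr8 held 2 of these hairpins. Its hairpins are known to be cut by the Microprocessor, of which DGCR8 is a subunit. Mir1306 (chr16:18284239-18284317, minus strand) lay in its coding sequence with 755 and 700 counts. Gm24572 (chr16:18284550-18284637, minus strand), which RefSeq lists as the source of miR-3618, lay in its untranslated region with 19 and 4 counts (8.96 ± 8.31 CPM). The log2 ratio of replicate 1 to replicate 2 was 0.13 for Mir1306 (95% exact interval -0.02 to 0.28) and 2.13 for Gm24572 (0.68 to 4.28). These intervals do not overlap, but they cover counting error only. Gm24572 rests on few counts and was not called with the spread that edgeR estimated, given below.

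Other coding-exon genes were Gm23450 in Cacng8, a subunit of AMPA receptors, with 55 and 49 counts (40.3 ± 3.65 CPM), Mir7654 in Arglu1 with 26 and 23, and Mir7658 in Plekhn1 with 13 and 13. The untranslated exons, besides that of Dgcr8, were those of Glul for Mir8114 (69 and 68 counts), Adgrb1 for Gm26117 (89 and 34), Tnrc6b for Mir5113 (50 and 48), Ppp2ca for Mir3061 (35 and 32), Krcc1 for Mir8112 (39 and 24), Ralgapa1 for Gm23394 (5 and 6) and Wdfy2 for Mir8098 (5 and 5). TNRC6B, encoded by Tnrc6b, is itself a partner of Argonaute in miRNA silencing, and GLUL is glutamine synthetase, an enzyme of radial glia and astrocytes. The noncoding exons were those of Dio3os for Mir1247 (35 and 22 counts), Mir124a-1hg, the host transcript of the neuronal Mir124a-1, for Mir3078 (20 and 13) and Gm37233 for Mir5103 (10 and 13). Of these 23 genes, Gm26117 and Gm24572 were called different between the libraries, beside 2.76% of all 398 genes.

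The 50 intronic genes had varied hosts, and those named here were chosen after their values were seen. Htr2c, a serotonin receptor gene on the X chromosome, held Mir1298 (146 and 138 counts, 110 ± 5.38 CPM) and Mir1264 (19 and 10 counts). Gap43, a growth cone protein gene, held Mir6540 (39 and 47 counts), and Boc, a Hedgehog co-receptor gene, held Mir3081 (36 and 43). The imprinted noncoding RNA Rian held Mir1188 (32 and 34 counts). Mir1955 in the chromatin gene Phf21a had 104 and 119 counts, and Mir3093 in Gm3764 had 122 and 115. For these 7 genes the 95% interval of the log2 ratio between the libraries included 0.

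Of the other intronic genes, Mir2137 in Zfp185 was higher in replicate 2, with 68 and 114 counts (log2 ratio -0.72, 95% exact interval -1.18 to -0.28). Mir1198 in Gripap1 had 92 and 70 counts, Mir1930 in Ube2g2 and Gm49325 had 70 and 60, Mir6538 in Rnf144a had 55 and 44, and Mir1968 in Grtp1 had 45 and 48. The remaining intronic genes stood at 30.3 CPM or below. Among the genes with a partner on the opposite strand only, Mir5126 lay opposite Dner, a Notch pathway gene of neurons, with 75 and 64 counts, and Mir7689 lay opposite Sorcs2 with 21 and 41. Of the 16 genes outside any annotated gene, Mir5099, Mir6236 and Mir6240 (90 and 35 counts) held the most counts, followed by Mir7688 (32 and 38) and Mir3475 (25 and 38), and the other 11 stood at 10.1 CPM or below.

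The 12 Gm-named genes held 503 counts in replicate 1 and 315 in replicate 2, or 0.0393% (95% Wilson interval 0.0360 to 0.0428) and 0.0243% (0.0217 to 0.0271) of the sense counts, and Gm23935 alone supplied 263 and 126 of them. The tables hold 843 Gm genes in all. Of the 12, 6 form a repeat family of almost the same letters on 6 chromosomes. The hairpins of Gm23935, Gm24245 and Gm24270 are identical over all 57 bases. Gm24187 differs from them by G11A, and Gm23388 by G2T, C16G, G21T and G48T, counted from 1 at the 5′ end of the Gm23935 hairpin, with the Gm23935 letter first. Gm25911, at 56 bases, was not aligned with them. The letters of the hairpins, from GENCODE M21 transcripts, are shown with differences from Gm23935 in capitals.
Gm23935, also Gm24245 and Gm24270: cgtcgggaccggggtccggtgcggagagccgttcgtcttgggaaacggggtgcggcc
Gm24187: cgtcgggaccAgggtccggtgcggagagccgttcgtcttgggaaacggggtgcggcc
Gm23388: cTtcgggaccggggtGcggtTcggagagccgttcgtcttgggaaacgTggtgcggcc

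Their counts were not alike. Gm23935 (chr16:11144125-11144181, plus strand, opposite Zc3h7a) had 263 and 126 counts, whereas the identical Gm24245 (chr4:139338304-139338360) had 15 and 8 and Gm24270 (chr9:56223715-56223771, in an intron of Peak1) had 6 and 11. Gm23388, in an intron of Zfp791, had 13 and 17 counts, Gm25911 had 4 and 10 and Gm24187 had 2 and 11. A read lying wholly within the 57 shared bases matches at least 3 places, and the tables set multimapping reads apart (1165381 and 1001079 reads). Which reads gave the counts of the 3 identical hairpins cannot be read from the tables. These 6 levels are therefore uncertain.

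The other Gm genes shared no such letters. They were Gm26117, Gm23450, Gm24572 and Gm23394, given above, Gm23134 and Gm25732. Gm23134, in an intron of Blcap and opposite Nnat, the imprinted neuronatin gene, had 28 and 32 counts (23.3 ± 1.98 CPM). Gm25732, on chromosome 4 next to Gm24245 and outside any gene, had 4 and 7 counts (4.26 ± 1.61 CPM).

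Counting all 99 genes, 10 shared a stretch of 20 bases with the hairpin of another miRNA gene, beside 79 of the 299, and 17 shared one with a transcript at another place, beside 43 of the 299. The remaining 73 genes shared none, and they held 24.3% of the 99 genes' counts. Mir1934, with 6 and 10 counts, shared such a stretch with the most transcripts, those of 451 genes, among them Gm22388, annotated as a miscellaneous RNA. None of the 99 shared one with an annotated rRNA, but no sequence of the large ribosomal RNA precursor was compared. Letters of miR-6236, of miR-6240 and of the Gm23935 family are known to resemble parts of 28S rRNA, which was not tested here.

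The hairpins were richer in G and C than those of the other miRNA genes. Their GC content had a median of 55.4% (range 32.5 to 91.6), beside 48.8% (28.4 to 72.3), and 71.8% for the 12 Gm genes. A GC content of 70% or more was found in 14 of the 99 and in 2 of the 299. This count and the Gm median treat the near-identical hairpins of the Gm23935 family as separate genes. Gm26117 had the highest, 91.6%, followed by Mir5126 at 83.1%. Predicted folding was not stronger: the median energy per 100 bases was -41.9 kcal/mol beside -43.3, and the median share of paired bases 69.2% beside 73.2%. The weakest fold among the 99 was that of Mir6240, at -21.1 kcal/mol per 100 bases.

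**Figure D3:**
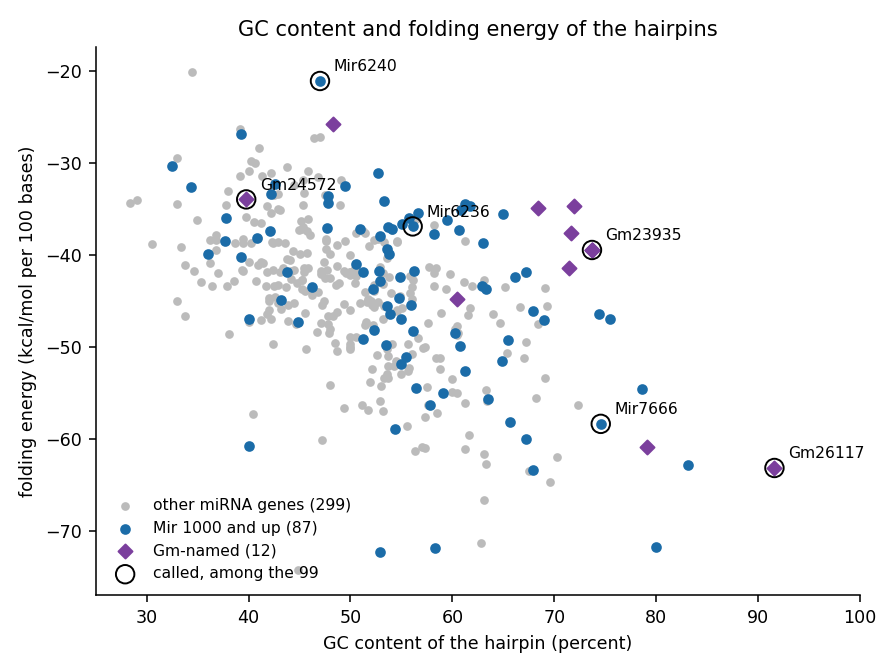
GC content of each hairpin against its predicted minimum free energy per 100 bases (RNAfold), for the 87 Mir genes, the 12 Gm genes and the 299 other miRNA genes; circles mark genes called different between the libraries. The points beyond 72.3% GC are all from the 99 genes.

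Reads fell almost wholly on the strand of the gene. The sum over the 99 genes was 10 counts on the opposite strand, 92 of the 99 had none, and the lowest sense share was 95.2%, for Gm23134 (60 sense and 3 opposite counts), whose intron lies opposite Nnat. The median sense share was 100% in the 99 genes and in the 299. Pooled over genes it was 99.97% (95% Wilson interval 99.95 to 99.99) in the 99 and 99.63% (99.63 to 99.64) in the 299, where Mir299b, the 1 gene with a sense share under 90%, held 9115 of the 9352 opposite-strand counts. Over the other 298 it was 99.99%, and 274 of the 299 (91.6%) had no opposite-strand count, beside 92.9% of the 99. Opposite-strand counts were not used in choosing the genes.

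Agreement between the libraries was tested gene by gene with a two-sided exact binomial test, adjusted by Benjamini-Hochberg over all 398 genes with 10 counts or more and called at an adjusted p under 0.05 and a difference of at least 2-fold. The choice of genes used the sum over both libraries, not its split. Of the 99 genes, 6 were called (6.06%), against 2.76% of all 398 genes (11 genes), with 5 higher in replicate 1 (2.26% of all) and 1 lower (0.503% of all). These calls rest on counting error. With an assumed coefficient of variation of 0.2 between samples, edgeR's exact test called 0 of the 99 and 0 of all 398 genes at the same thresholds, with 7 and 13 at an unadjusted p under 0.05. With the common coefficient of variation that edgeR estimated from the libraries, 10.4%, the same test called 4 of the 99 (Mir6236, Gm23935, Gm26117 and Mir6240) and 6 of all 398, and not Gm24572 or Mir7666. That spread was a single value for all genes, estimated from the same libraries that the test then compared. It is therefore not an independent measure of variation between samples.

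The 5 genes higher in replicate 1 belonged to no single class of position. Mir6236 had 388 and 123 counts, a log2 ratio of 1.67 (95% exact interval 1.38 to 1.98, adjusted p = 3.14e-32, exact binomial test). Gm23935 had 263 and 126 counts, a log2 ratio of 1.08 (0.77 to 1.40, adjusted p = 1.12e-11, exact binomial test). Those 2 and Mir6240, with 90 and 35 counts (1.37, 0.80 to 1.99, adjusted p = 4.22e-06, exact binomial test) are among the genes named above for letters that resemble rRNA, whose part in these calls was not tested. The other 5 of the Gm23935 family were not called, and 4 of them had fewer counts in replicate 1. Gm26117, with 61 of its 95 bases in an untranslated exon of Adgrb1, had 89 and 34 counts (1.39, 0.82 to 2.02, adjusted p = 3.43e-06, exact binomial test). Gm24572 had 19 and 4 counts (2.13, 0.68 to 4.28, adjusted p = 0.00641, exact binomial test).

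The gene called lower in replicate 1, Mir7666 in an intron of Fgf20, had 5 and 19 counts, a log2 ratio of -1.81 (95% exact interval -3.68 to -0.44, adjusted p = 0.0254, exact binomial test). Of the 299 other genes, 5 were called. Those higher in replicate 1 were Mir451a of red blood cells (632 and 317 counts), Mir10a (154 and 54) and Mir10b (85 and 33) of hindbrain and spinal cord, and the liver miRNA gene Mir122 (27 and 8), and Mir211 (20 and 47) was lower. Whether tissue outside the forebrain had a part in the calls among the 99 genes was not tested. With no fold minimum, 11 of the 99 and 102 of the 299 had an adjusted p under 0.05, and the added genes among the 99 were Mir1983, Mir1251, Mir5099, Mir3099 and Mir2137.

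**Figure D4:**
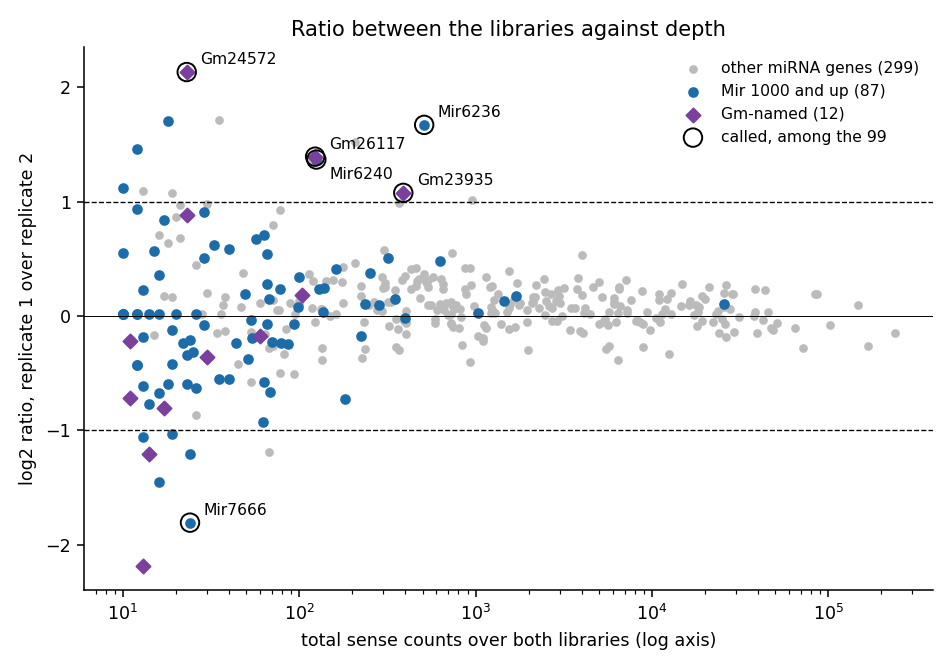
Log2 ratio of replicate 1 to replicate 2 against the total sense counts over both libraries (log axis) for the 87 Mir genes, the 12 Gm genes and the 299 other miRNA genes; dashed lines mark 2-fold and circles mark called genes among the 99. The spread is narrowest at the highest totals, and Mir6236, Gm23935, Mir6240 and Gm26117 lie above the 2-fold line at totals of 123 to 511 counts.

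Among the 99 genes, the ratios were more widely spread at totals below 50 counts than at higher totals. Among the other genes the spread did not fall steadily with depth, and it was narrowest from 1000 counts. The median absolute log2 ratio was 0.36 over the 99 genes, and by total counts it was 0.55 for totals of 10 to 19 (35 genes), 0.53 for 20 to 49 (22 genes), 0.24 for 50 to 99 (20 genes), 0.31 from 100 to below 1000 (18 genes) and 0.12 from 1000 counts (4 genes). For the other genes, the values in the same order were 0.22 (15 genes), 0.40 (18 genes), 0.17 (20 genes), 0.21 (96 genes) and 0.11 (150 genes). From 100 to below 1000 counts, 13 of 18 lay within 1.5-fold, beside 92 of 96 other genes. In this range 4 of the 18 were called, beside 3 of the 96. Depths within the range were not matched between the sets. All 99 genes had counts in both libraries.

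At the edge of the rule, 15 genes had totals of 10 to 12 counts, between 3.88 and 4.67 CPM: those with 12 were Mir3089, Mir5101, Mir5622, Mir6399, Mir7064 and Mir7068, those with 11 were Gm23394, Gm25732 and Mir3962, and those with 10 were Mir3076, Mir3094, Mir3572, Mir6897, Mir7026 and Mir8098. Just outside it, 11 genes had 9 counts: Mir1943, Mir3098, Mir5132, Mir5134, Mir6936, Mir6951, Mir6996, Mir7079, Mir7226, Mir7648 and Mir7663. A total of 8 was found for Gm23634, Mir1927, Mir1929, Mir5100, Mir6979, Mir7063 and Mir7662. A total of 7 was found for Gm25745, Gm27920, Mir3088, Mir5122, Mir5133, Mir6945, Mir6971, Mir7018, Mir7041, Mir7070 and Mir7651. These 29 stood between 2.71 and 3.50 CPM.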

How the data were processed

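MicroRNA-seq of 2 libraries of 1 group was used. The deposited tables give raw counts per miRNA gene for both strands together, the strand of the gene and the opposite strand. Per the text files deposited with them, the authors aligned reads to mm10 and used GENCODE annotation M4; which aligner and which counter they used is not given in the sources used here. Unmapped, multimapping, no-feature and ambiguous reads have rows of their own and stayed out of totals. Multimapping reads were 29.5% and 29.2% of all reads. Every value column was mapped to its sample.

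Members and lists were chosen with earlier results of these data known. The genes given in full are the 10 with the highest level, those called, those in another RNA class or a whole intron, all Gm genes, and those near the minimum of 10 counts. Genes named beyond these, in the paragraphs on position, were chosen after their values were seen.

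CPM was taken over sense counts, and 0.5 counts were added for log2 ratios. Ratios have exact Clopper-Pearson intervals, for counting error alone. The binomial test was tested on simulated data. Symbols and positions came from GENCODE M21 on GRCm38 (1894 of 1973 identifiers matched). Exons came from its basic set, and introns and splice sites from all its transcripts. Small RNA genes came from M21 and RefSeq. Tools were Python 3.11.15, scipy 1.17.1, R 4.3.3, edgeR 4.0.16, DESeq2 1.42.0 and RNAfold 2.7.2. Alternatives covered scaling (TMM, DESeq2 size factors), minimum counts, strand, overlap and each library alone.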

Additional observations from a re-analysis of the deposited data

How the results depend on the processing

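The count of 6 called genes became 8 with TMM factors and 7 with DESeq2 size factors. It stayed at 6 with unstranded counts, a minimum of 20 counts or no minimum. In each of these settings the same 6 genes were called. Over all 398 genes, 11 were called in the main test. Calls over all genes under these settings are not given here, so the changes are not set against them. TMM added Gm24187 (log2 ratio -2.25) and Mir7689, and DESeq2 size factors added Gm24187. With edgeR's exact test at the estimated spread, an alternative chosen after seeing the data, the count was 4, without Gm24572 and Mir7666. This stood beside 6 of all 398 genes. The count became 11 with no fold minimum, beside 113 of all 398 genes. With edgeR's exact test with a spread of 0.2 between samples it became 0, beside 0 of all 398. The share of 1.44% became 2.44% without the 10 most abundant miRNA genes in the total and 0.442% without Mir1983, and it ranged from 1.37% to 1.51% with either library left out. The sense share was 100% with either library left out and 99.97% pooled over genes. With a minimum of 20 counts, 54 of 64 genes overlapped a host gene. Exons of all M21 transcripts, also chosen afterwards, gave 29 genes in place of 23. The tRNA overlap could not be limited to 1 strand, since the table used gives none. Of 117 log2 ratios of the 39 genes given in full under alternatives, 116 kept their side of the threshold. Of 156 levels, 148 moved by less than 1 SD. Many of the 156 are levels with either library left out, which by construction always move by less than 1 SD. Those say nothing about stability. No paired analysis was possible because the series has a single group. Depth limits the 35 genes with totals under 20 counts most.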
